A study of Mus musculus with 11 samples.

Results

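Efferocytosis is the uptake of dying cells by phagocytes. The genes described here are 9 that encode its best known parts: the receptor tyrosine kinases Mertk, Axl and Tyro3, their ligands Gas6 and Pros1, the bridging protein Mfge8, the phosphatidylserine receptor Timd4, and Elmo1 and Dock1, which turn receptor binding into engulfment. They were taken by symbol from the deposited gene count table, and each symbol matched 1 of 55487 gene IDs. RNA was sequenced from macrophages that had been differentiated in culture out of the marrow of C57BL/6J mice aged 2 to 5 months. In 7 control libraries the cells received 0 µg/ml of CYR61, and in 4 libraries they received 0.5 µg/ml CYR61 for 24 h. All cells were differentiated and kept in medium that contained CMG-conditioned medium. CYR61 is also named CCN1, a secreted matrix protein that binds integrins. Separate mice or cultures are not named for the libraries, so the spread behind each p-value may be only technical.

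A dying cell exposes phosphatidylserine on its outer membrane. Gas6 and protein S, the product of Pros1, bind this lipid with one end and a receptor of the TYRO3, AXL and MERTK family (the TAM receptors) with the other, and Mfge8 links it to the integrins alpha-V beta-3 and alpha-V beta-5. ELMO1 and DOCK1 together activate the GTPase RAC1, which drives the actin rearrangement that closes the cup around the corpse. MERTK is the TAM receptor best known for clearance by resting macrophages, while AXL is known to be induced by inflammatory and interferon signals. TAM signalling is also known to damp cytokine and interferon responses. CCN1 has itself been described as a bridge between phosphatidylserine and integrins in the clearance of neutrophils.

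Total counts were 14912123 to 21047654 in the control and 17390272 to 20760322 in the CYR61 libraries. Levels are given as CPM, counts scaled to library size with TMM factors. Changes come from edgeR (quasi-likelihood test), and the adjusted p is that of Benjamini-Hochberg across the 15135 genes tested. A gene passed at an adjusted p under 0.05. CYR61 replicate 4 stood apart in ribosomal RNA, with 2.4% of counts against 0.246 to 0.797% in the other libraries, and CYR61 replicate 1 in mitochondrial RNA, with 0.954% against 1.24 to 1.5%. Of 7 macrophage marker genes all were detected, and their summed level was 22400 to 23700 CPM in controls and 24700 to 27000 CPM with CYR61; 6 of the 7 passed the test as higher (Adgre1, Csf1r, Fcgr1, Itgam, Lyz2 and Mrc1). Markers of other cells were low: the 8 fibroblast and stromal genes summed to 0.545 to 1.64 CPM in controls and 0.822 to 1.63 CPM with CYR61, with Lum at 0 in every library, and the 6 T and B cell genes to at most 0.37 CPM, with Cd3e, Cd3g and Trbc2 at 0. The 7 dendritic cell genes summed to 2.4 to 3.27 and 2.16 to 2.91 CPM, and the 8 neutrophil genes to 0.785 to 1.39 and 1.66 to 2.12 CPM, with S100a8 passing as higher and Ly6g at 0. The 7 endothelial genes summed to 144 to 157 and 117 to 138 CPM, nearly all of it Vwf, which fell. The 8 genes of peritoneal and other resident macrophages summed to 184 to 220 and 190 to 214 CPM, with Cd163 passing as lower and Clec4f at 0. Most of that sum was Folr2 (means of 177 and 180 CPM), which did not pass, and Gata6, Selp and Lyve1 had at most 1 count in a library. The part of these shifts in the results below was not tested. In bulk RNA, fewer cells of a kind and less RNA per cell cannot be told apart.

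Of the 9 genes, 7 were abundant enough to be tested and 2 were not. Timd4, which encodes the receptor TIM-4 known from resident peritoneal macrophages, had 0 counts in all 11 libraries. A count of 0 allows up to 3 counts, which is 0.14 to 0.197 CPM depending on the library, and this limit covers counting error only. Tyro3 had at most 1 count in any library. No difference in either gene was detectable at this depth.

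Pros1 rose and Elmo1 fell with CYR61, by 1.21-fold and by 8.13%. These were 2 of the 7 tested genes (28.6%), where 7.96% of all genes tested passed (5.33% higher and 2.63% lower), as did 11.7% of the 8658 genes whose mean reached 10 CPM. Of the 7 genes, Pros1 and Elmo1 were also the 2 whose groups did not overlap, against 7.16% of all genes tested (4.65% with every CYR61 library above every control and 2.5% with every one below). An unadjusted p under 0.05 was reached by 5 of the 7, against 20.4% of all genes tested. Across the 7 genes the changes were small, from -0.12 to 0.27 on the log2 scale. Their median size, taken without sign, was 0.1 log2 units, beside 0.085 for all genes tested and 0.059 for genes of at least 10 CPM.

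Sequences just upstream of the start are shown for Pros1 and Elmo1, the genes that passed the test, and for Mertk, whose call depended on the libraries used. They are the 250 bases before the transcription start in RefSeq on build GRCm38.p6, 5′ to 3′ on the gene's strand, with GC boxes (GGGCGG on either strand) in capitals. The positions are chr16:62854057-62854306 for Pros1, chr13:20090257-20090506 for the first start of Elmo1 and chr2:128698665-128698914 for Mertk, all on the + strand.
Pros1: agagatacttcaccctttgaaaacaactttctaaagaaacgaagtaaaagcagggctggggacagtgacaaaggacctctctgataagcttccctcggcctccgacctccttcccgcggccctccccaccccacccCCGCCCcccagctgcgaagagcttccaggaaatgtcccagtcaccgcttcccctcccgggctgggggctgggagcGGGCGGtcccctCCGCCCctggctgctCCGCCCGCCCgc
Elmo1: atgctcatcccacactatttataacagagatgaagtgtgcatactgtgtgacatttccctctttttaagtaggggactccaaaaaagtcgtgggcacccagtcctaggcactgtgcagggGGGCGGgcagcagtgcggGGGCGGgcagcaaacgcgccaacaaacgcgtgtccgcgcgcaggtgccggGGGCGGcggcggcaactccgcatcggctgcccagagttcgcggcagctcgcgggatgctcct
Mertk: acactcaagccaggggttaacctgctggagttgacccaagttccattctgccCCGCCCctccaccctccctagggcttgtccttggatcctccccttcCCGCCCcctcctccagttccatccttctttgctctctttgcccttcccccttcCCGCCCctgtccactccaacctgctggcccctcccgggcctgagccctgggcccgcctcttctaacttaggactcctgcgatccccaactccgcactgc
The Pros1 window held 5 GC boxes and the Elmo1 and Mertk windows 3 each. Of all 32851 windows of this length in the table, 32.7% held at least 1. The 9 genes had 10 windows, since Elmo1 has a second start, and 8 of the 10 held a GC box. Those 8 windows were 54.8 to 73.2% G or C, against a median of 52.4% for all windows, and the shares given here are not matched for this content. The second Elmo1 window and that of Timd4 held none. The core of the interferon-stimulated response element (either strand) was in none of the 10 and in 2.98% of all windows. The PU.1-type purine box (GAGGAA, either strand) was in those of Axl, Mfge8 and Dock1, 3 of 10 against 23.3% of all, and the nuclear receptor half-site (AGGTCA, either strand) in that of Timd4 alone, against 14%. No match of 1 motif overlapped a match of another, though neighbouring GC boxes can share bases. A match is a description of the sequence only.

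Gas6 was the most abundant of the 9 genes by a wide margin. Scaled by exon length (GENCODE M21, which may differ from the annotation the authors used), Gas6 stood at 316 ± 13.7 CPM per kb in controls (SD, n = 7), and Mfge8 at 35.7 ± 1.18, Mertk at 24 ± 2.17 and Pros1 at 15.3 ± 0.742. Elmo1, Dock1 and Axl followed at 8.1 ± 0.294, 6.77 ± 0.37 and 6.34 ± 0.618 CPM per kb. The length used is that of all annotated exons of a gene merged (12580 bases for Elmo1), not that of the transcript expressed. The order and the levels of the ratios per kb depend on it. Without this scaling the control mean of Elmo1 (102 CPM) was beside that of Mertk (104 CPM) and above that of Pros1 (62.5 CPM). In controls every neighbouring pair in this order was separate in its library ranges except Dock1 (6.2 to 7.15) and Axl (5.51 to 7.44). In the CYR61 libraries the order was the same by mean, and Elmo1 (7.32 to 7.69 CPM per kb) overlapped Dock1 (6.87 to 7.54) as well. Of the TAM receptors Mertk was the most abundant, with Axl at 0.265 ± 0.0258 times Mertk per kb in controls and 0.241 ± 0.0529 times with CYR61 (n = 4), ranges that overlapped.

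**Figure D1:**
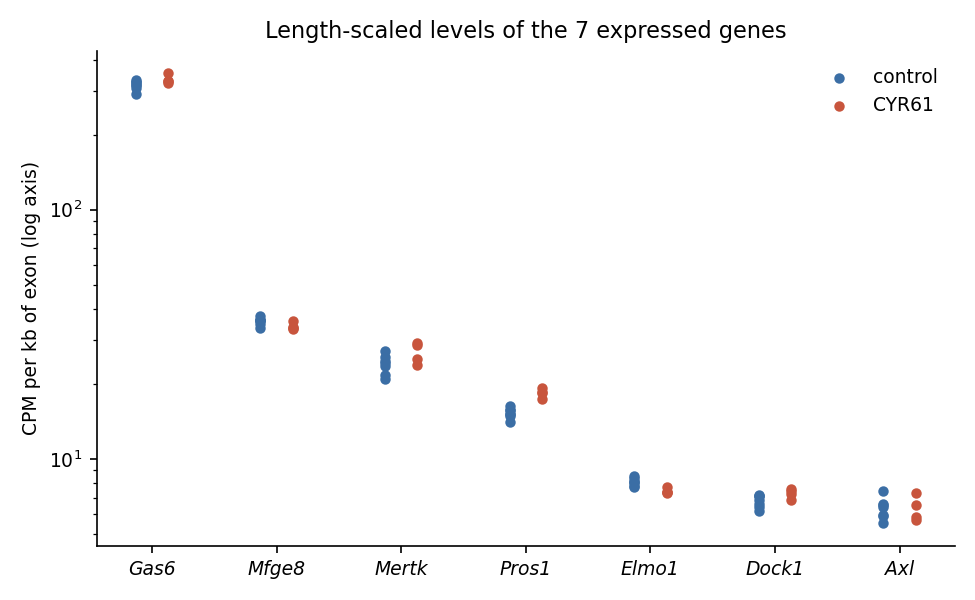
Level of each of the 7 expressed genes in CPM per kb of exon on a log axis, 1 point per library (blue, 7 control; red, 4 CYR61). Gas6 stands near 316 CPM per kb in controls, and Dock1 and Axl share a range near 6 to 7.

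The ligand gene Pros1 encodes protein S, which is also a cofactor in the anticoagulant pathway of plasma. Control replicates 1 to 7 held 60.7, 62, 64.2, 64.3, 66.9, 62.1 and 57.4 CPM, and CYR61 replicates 1 to 4 held 71.2, 78.8, 76.1 and 75.1 CPM. Every CYR61 library stood above every control, and the lowest of them, replicate 1, was 71.2 against a highest control of 66.9. The means were 62.5 ± 3.03 (SD, n = 7) and 75.3 ± 3.13 CPM (n = 4), a log2 fold change of 0.27 ± 0.039 (SE; edgeR, adjusted p = 0.00023), or 1.21-fold with a 95% interval of 1.14 to 1.28. In the authors' deposited table the log2 fold change of Pros1 was 0.28, with an adjusted p of 1.13e-05. The call held in all 22 alternatives, with log2 fold changes of 0.25 to 0.30 when any 1 library was left out.

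Gas6, the other TAM ligand, was at 739 to 843 CPM in controls (median 809) and at 898, 823, 839 and 835 CPM in CYR61 replicates 1 to 4. All 4 CYR61 libraries were above the control median and only replicate 1 was above the highest control. Its log2 difference of 0.08 ± 0.036 (SE) did not pass (edgeR, adjusted p = 0.238, unadjusted p = 0.0479). The 95% interval of the fold, not adjusted for the number of genes, ran from just above 1 to 1.11. The ratio of Pros1 to Gas6 within a library does not depend on how libraries are scaled. Per kb it was 0.0485 ± 0.0033 in controls and 0.0554 ± 0.00432 with CYR61, so Pros1 transcripts stayed far below those of Gas6 in both groups. CYR61 replicates 2, 3 and 4 (0.0597, 0.0566 and 0.056) lay above the highest control (0.0516), and replicate 1 (0.0494) lay among the controls. This ratio and those below were chosen after values had been seen and are descriptions.

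Mfge8, whose product bridges phosphatidylserine to integrins, stood at 158 to 175 CPM in controls (median 169) and at 168, 156, 159 and 158 CPM in CYR61 replicates 1 to 4. The groups overlapped through replicate 1, and 2 of the 4 CYR61 libraries were below the lowest control. The log2 difference was -0.07 ± 0.033 (SE) and did not pass (edgeR, adjusted p = 0.262). It passed, at -0.11, with scaling by library size alone (edgeR, adjusted p = 0.0479). With TMM factors and 1 library left out it did not pass (edgeR, adjusted p = 0.114 to 0.498). Gas6 was 8.84 ± 0.323 times as abundant per kb as Mfge8 in controls and 9.76 ± 0.0777 times with CYR61, and for this ratio every CYR61 library (9.7 to 9.88) was above every control (8.46 to 9.34).

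**Figure D2:**
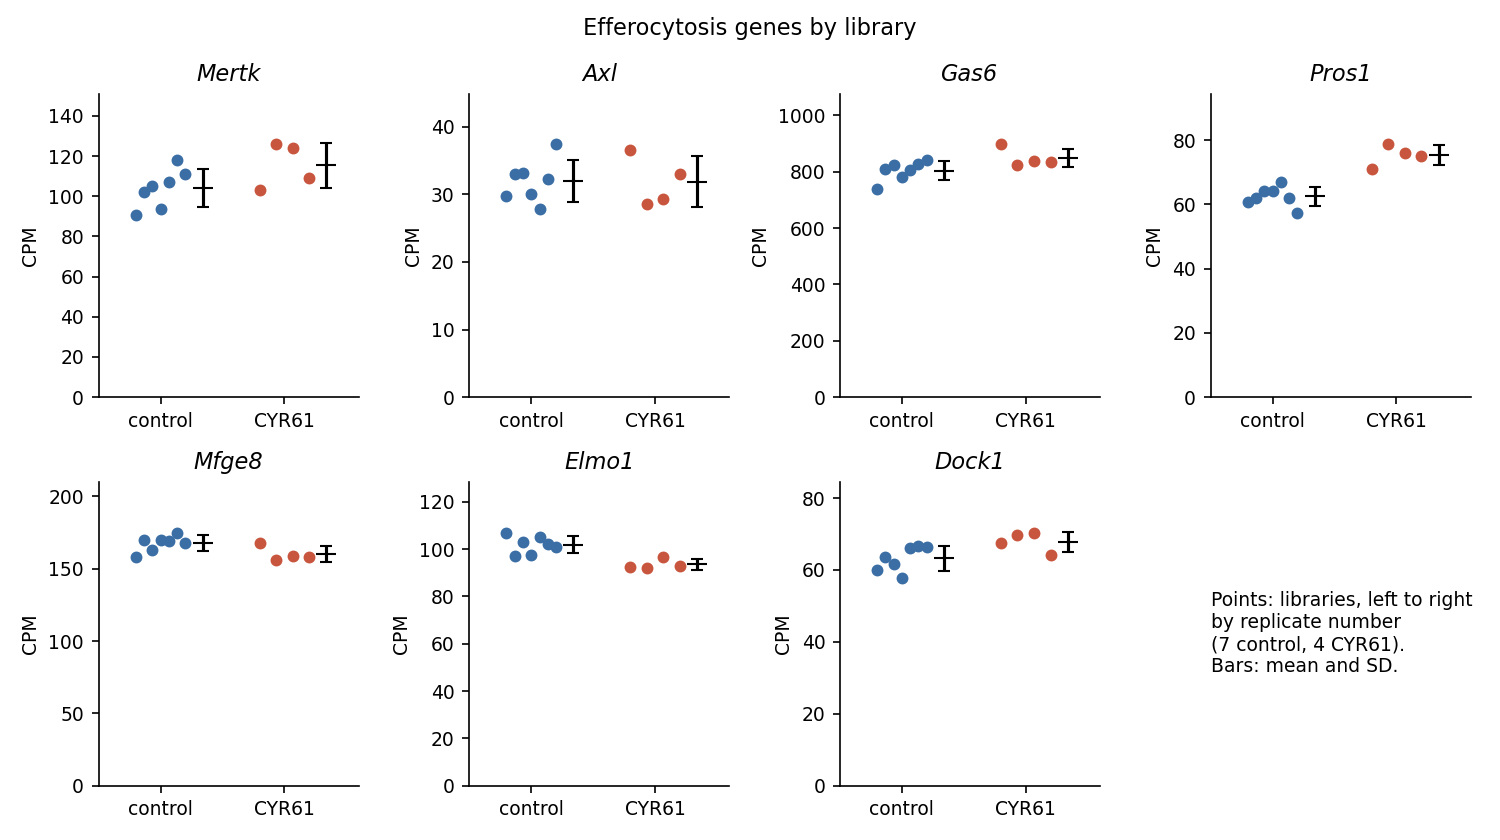
CPM of the 7 expressed genes in each library (blue, control replicates 1 to 7; red, CYR61 replicates 1 to 4, from left to right), with mean and SD as black bars, on axes from 0. For Pros1 all red points are above all blue points (71.2 to 78.8 against 57.4 to 66.9 CPM), for Elmo1 all are below (92.1 to 96.8 against 97 to 107 CPM), and the other 5 genes overlap.

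The receptor gene Mertk was measured at 90.9, 102, 105, 93.7, 107, 118 and 111 CPM in control replicates 1 to 7 and at 103, 126, 124 and 109 CPM in CYR61 replicates 1 to 4. CYR61 replicates 2 and 3 were above every control, while replicates 1 and 4 lay inside the control range. The means of 104 ± 9.42 (SD, n = 7) and 116 ± 11.5 CPM (n = 4) differed by 0.15 ± 0.066 on the log2 scale (SE), which did not pass (edgeR, adjusted p = 0.194; 95% interval of the fold 1.01 to 1.22). Without CYR61 replicates 1 and 4 the log2 fold change was 0.27 and passed (edgeR, adjusted p = 0.0383). It was 0.24 and passed as well (edgeR, adjusted p = 0.0286) in the 8 libraries numbered 1 to 4 in each group, which leave out control replicates 5, 6 and 7, the highest of the controls. Over all alternatives the adjusted p ran from 0.00144 to 0.484.

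Axl, the TAM receptor tied to inflammatory states, was at 29.8, 33, 33.1, 30.1, 27.8, 32.2 and 37.4 CPM in control replicates 1 to 7 and at 36.6, 28.5, 29.3 and 33 CPM in CYR61 replicates 1 to 4. The groups overlapped fully, and no CYR61 library was outside the control range. The means were 31.9 ± 3.11 and 31.8 ± 3.76 CPM (log2 difference -0.0057 ± 0.076 SE; edgeR, adjusted p = 0.979), and the 95% interval of the fold, 0.891 to 1.11, bounds a change to about that size in either direction. Its direction changed sign in 7 of 22 alternatives. Mertk and Axl were also the members that varied most among libraries, with a coefficient of variation in controls of 9.05% and 9.76%, against 3.3 to 5.46% for the other 5 genes and a median of 4.9% for genes of at least 10 CPM.

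Elmo1 and Dock1 encode the partners of one exchange factor for RAC1. Elmo1 was at 107, 97, 103, 97.7, 105, 102 and 101 CPM in control replicates 1 to 7 and at 92.4, 92.1, 96.8 and 93 CPM in CYR61 replicates 1 to 4. All 4 CYR61 libraries were below all controls, though replicate 3 (96.8) came close to control replicate 2 (97). The means were 102 ± 3.7 (SD, n = 7) and 93.6 ± 2.18 CPM (n = 4), a log2 fold change of -0.12 ± 0.032 (SE; edgeR, adjusted p = 0.0257), or 0.919 times control with a 95% interval of 0.876 to 0.963. The authors' deposited table gives -0.11 for Elmo1, with an adjusted p of 0.0277. The call was lost in 10 of 22 alternatives, among them leaving out control library 3, control library 5, or any CYR61 library but replicate 3 (edgeR, adjusted p = 0.0501 to 0.1), while the direction held in all 22. The deposited counts of Elmo1 were not whole in any library, which can happen where a counter divides reads between features, whereas those of the other 8 genes were whole in every library. Its exons overlap those of an antisense gene, Gm32036, which stood at 1.46 ± 0.143 and 1.23 ± 0.121 CPM and did not pass (edgeR, adjusted p = 0.48). Whether reads were divided between Elmo1 and Gm32036 was not tested.

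Dock1 was at 57.9 to 66.7 CPM in controls (median 63.7) and at 67.4, 69.6, 70.4 and 64.1 CPM in CYR61 replicates 1 to 4. Replicates 1 to 3 were above every control and replicate 4 was not. The log2 difference of 0.10 ± 0.042 (SE) did not pass (edgeR, adjusted p = 0.175). In the 8 libraries numbered 1 to 4 it was 0.16 and passed (edgeR, adjusted p = 0.0321). The ratio of Elmo1 to Dock1 per kb was 1.2 ± 0.0757 in controls and 1.02 ± 0.039 with CYR61, and every CYR61 library (0.981 to 1.08) was below every control (1.13 to 1.32). Fam196a, which lies within Dock1 on the opposite strand, stood at 3.67 ± 0.445 and 3.68 ± 0.478 CPM. Tmem255b, whose exons overlap Gas6 on the opposite strand, had at most 8 counts in a library.

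**Figure D3:**
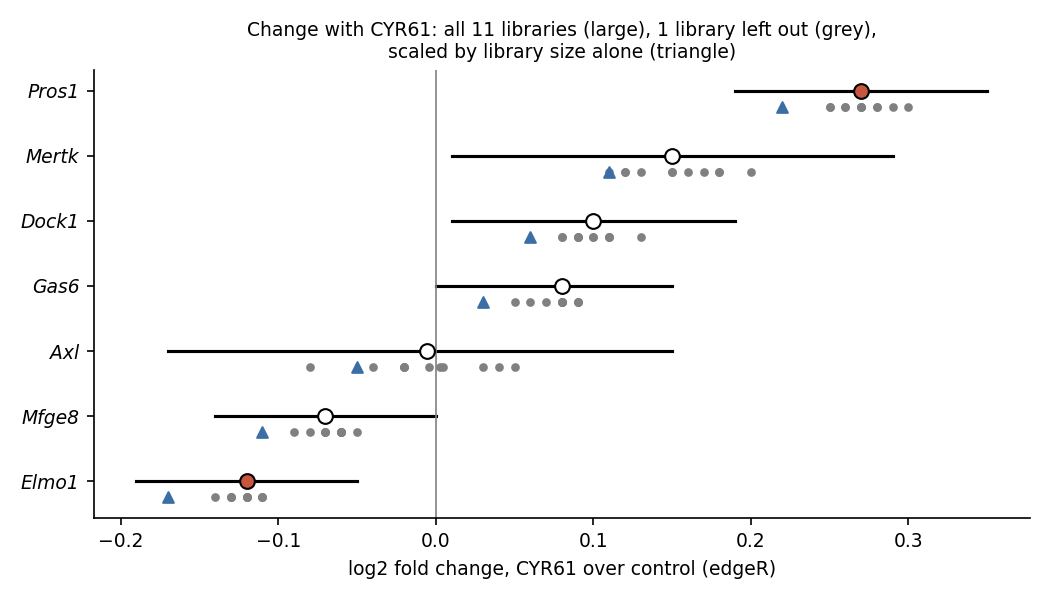
Log2 fold change of each tested gene with CYR61 over control, with its 95% interval (large symbols, filled where the adjusted p is under 0.05), the values with 1 library left out (grey points) and with scaling by library size alone (triangles). Pros1 lies from 0.19 to 0.35, and the intervals of Axl and Mfge8 include 0.

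Levels were also compared library by library after each group's mean had been subtracted, which removes the mean difference between the groups. All values are over 11 libraries, share the same scaling and carry no test. Among 21 pairs of members Pearson's r ran from -0.83 to 0.82. Libraries with more Mertk had more Dock1 (r = 0.82, Spearman's rho 0.80; r = 0.89 in the 7 controls, and 0.90 without the 2 libraries farthest from the median in Mertk), and libraries with more Axl had less Pros1 (r = -0.83, rho -0.71; r = -0.78 in the 7 controls, and -0.65 over all libraries without the 2 farthest from the median in Axl). Control replicate 5 was lowest in Axl and highest in Pros1 (27.8 and 66.9 CPM), and control replicate 7 was the reverse (37.4 and 57.4 CPM). The other controls showed no such order, and control replicate 1 was low in both genes (29.8 and 60.7 CPM). For the receptors Mertk and Axl r was -0.15 (rho -0.25, and r = 0.41 in the 7 controls). Of the 8658 genes whose mean reached 10 CPM, the one most like Mertk was Mrc1, which encodes the mannose receptor CD206, a marker of alternatively activated and resident macrophages. Its r with Mertk was 0.99 (rho 0.99), also 0.99 in the 7 controls alone and without the 2 libraries farthest in Mertk. Mrc1 stood at 208, 256, 261, 230, 274, 315 and 290 CPM in control replicates 1 to 7 and at 267, 378, 386 and 314 CPM in CYR61 replicates 1 to 4, so that CYR61 replicates 1 and 4 were the low ones for both genes. Mrc1 itself rose 1.28-fold (edgeR, adjusted p = 0.0326).

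**Figure D4:**
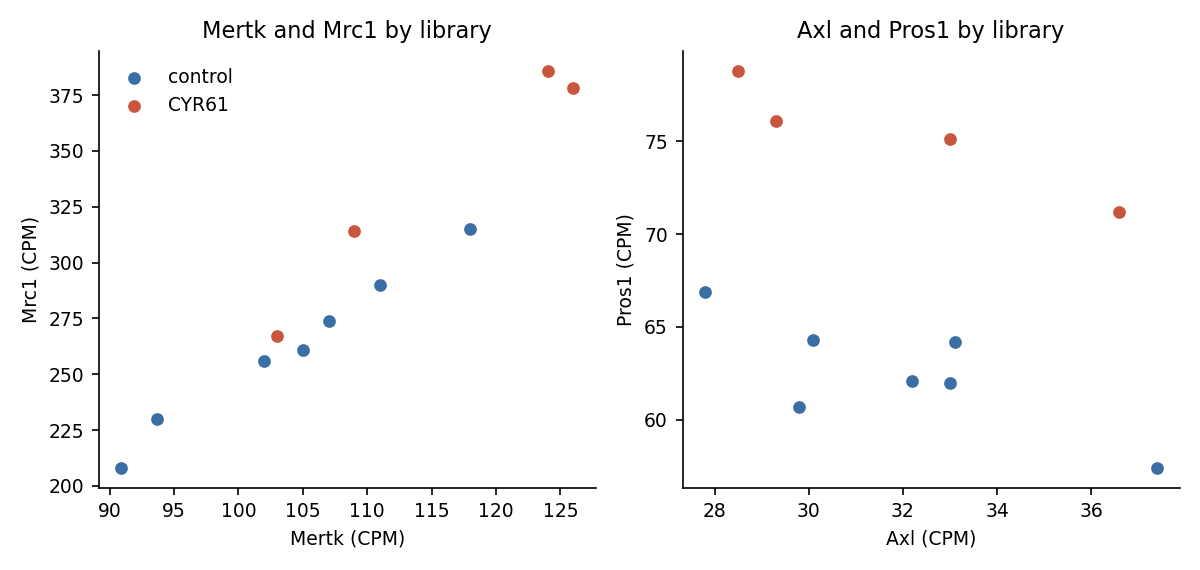
Left, CPM of Mrc1 against Mertk, and right, CPM of Pros1 against Axl, 1 point per library (blue, 7 control; red, 4 CYR61). Mrc1 climbs with Mertk in both groups, from 208 to 386 CPM. Pros1 is lower where Axl is higher among the CYR61 points, and among controls only through replicates 5 and 7.

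The gene after Mrc1 in likeness to Mertk was Arrdc3 (r = 0.96, rho 0.91). For Axl these genes were Rnf220 (r = 0.94, rho 0.90) and Bahcc1 (r = 0.91, rho 0.90), and for Pros1 they were Pcgf2 (r = 0.94, rho 0.87) and Creg2 (r = 0.91, rho 0.91). Ttc28 was among the genes most like Gas6 (r = 0.97, rho 0.96). For Mfge8 they were Frat2 (r = 0.94, rho 0.95) and Dhrs3 (r = 0.94, rho 0.89), for Elmo1 Atn1 (r = 0.92, rho 0.88) and Tgfbrap1 (r = 0.88, rho 0.82), and for Dock1 Nrros (r = 0.95, rho 0.94) and Pfkfb4 (r = 0.94, rho 0.91). Of these, Pfkfb4, which encodes a regulator of glycolysis, rose 1.13-fold and Dhrs3, a retinaldehyde reductase gene, fell to 0.914 times control (edgeR, adjusted p = 0.00953 and 0.0242). Mrc1 and all genes named here were picked as the highest of 8658 over 11 libraries, so a high r can arise from the picking alone. Without the 2 libraries farthest from the median in the member, r in this paragraph ran from 0.77 (Tgfbrap1) to 0.94 (Arrdc3).

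The rest of the pathway was described with 9 lists of 97 further genes, of which 87 were tested. Of these, 17 rose, 9 fell and 61 did not pass. The share that passed was 29.9%, against 7.96% of all genes tested and 11.7% of genes of at least 10 CPM. The lists were written with earlier results of these data known, so a higher share can come from that choice. Of all genes tested 5.33% rose and 2.63% fell, and the counts of each list below stand beside these shares. Without TMM factors 10 rose and 13 fell, a scaling that lowered the median log2 fold change of all genes from -0.008 to -0.052. Leaving out CYR61 replicate 2 or 3 reduced the number that passed to 17 or 16.

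Among other bridging molecules and opsonins 5 of 10 tested rose and 0 fell, with a median log2 fold change of 0.254. All 5 were complement genes, and none of the other genes tested in this list passed. Of all genes tested 5.33% rose. Without TMM factors 5 rose and 1 fell. The 3 chains of C1q, the complement protein that coats dying cells and is made by macrophages, rose together. C1qa went from 322 ± 40.4 to 443 ± 27.2 CPM (1.38-fold), C1qb from 1070 ± 106 to 1360 ± 73 CPM (1.27-fold) and C1qc from 920 ± 94.5 to 1120 ± 40.1 CPM (1.21-fold), with adjusted p of 0.000482 to 0.00652 (edgeR). For each of the 3 every CYR61 library was above every control, and no alternative lost the call. C3 and C4b, complement proteins whose fragments opsonise, rose as well, C3 3.14-fold and C4b from 0.346 ± 0.161 to 1.09 ± 0.207 CPM. C4b was chosen after its value was seen. Thbs1, Anxa1, Anxa5, Lgals3 and Edil3 did not pass, and Ccn1, the transcript of CYR61 itself, had at most 1 count in a library.

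Among other engulfment receptors 1 of 13 rose, 2 fell and 10 did not pass, with a median of -0.047. Itgb3, which encodes the beta-3 subunit of integrin alpha-V beta-3, fell from 10.8 ± 0.838 to 7.88 ± 0.798 CPM (edgeR, adjusted p = 0.00121), a call no alternative lost. Its partner Itgav (192 ± 9.57 and 185 ± 12.8 CPM) did not pass. Nor did Itgb5 (241 ± 25.8 and 262 ± 7.46 CPM), the more abundant beta subunit gene of the other Mfge8 integrin. Cd300lf, a phosphatidylserine receptor gene, rose 1.4-fold and its relative Cd300lb fell to 0.911 times control (edgeR, adjusted p = 0.032 and 0.0261), and these calls were lost in 7 and 6 of 21 refits. Havcr2, which encodes TIM-3, stood at 33 ± 1.8 and 29.7 ± 1.81 CPM and did not pass, though it passed in 3 of 21 refits. The abundant receptors Lrp1 (4840 and 4880 CPM), Stab1 (1780 and 1930 CPM) and Cd36 (642 and 654 CPM) did not pass either.

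Of the inhibitory receptors and signals, 1 of 8 rose and 2 fell. Cd300a, an inhibitory receptor for phosphatidylserine, fell from 166 ± 3 to 137 ± 2.99 CPM and Cd24a, a signal known to restrain uptake, from 25.1 ± 2.5 to 18.2 ± 2.04 CPM (edgeR, adjusted p = 5.69e-06 and 0.00105). Ptpn6, which encodes the phosphatase SHP-1 that acts below such receptors, rose 1.11-fold (254 ± 8.15 to 282 ± 4.68 CPM). For these 3 genes the groups did not overlap and no alternative lost the call. Cd47 was at 218 ± 8.63 and 237 ± 12.6 CPM and did not pass (edgeR, adjusted p = 0.0648), though it passed in 5 of 21 refits.

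Of the other uptake machinery, 2 of 15 rose, 1 fell and 12 did not pass. The kinase gene Src rose 1.4-fold from a low level (4.06 ± 0.553 to 5.69 ± 0.647 CPM), Rhog, the GTPase that recruits ELMO1, rose 1.08-fold (244 ± 6.53 to 263 ± 11.1 CPM), and Dock5, a relative of Dock1, fell to 0.898 times control (81.2 ± 3.8 to 72.9 ± 3 CPM). The call of Rhog was lost in 11 of 21 refits and those of Src and Dock5 in 3 each. Rac2 was at 231 ± 3.15 and 245 ± 8.38 CPM and did not pass, though it passed in 3 of 21 refits. The paralogs Elmo2 (57.3 and 58.4 CPM) and Dock2 (446 and 441 CPM) did not pass either. Of the 4 genes tied to shedding of TAM receptors, Adam17, the protease that cleaves MERTK, rose 1.1-fold (260 ± 10.8 to 286 ± 9.76 CPM; edgeR, adjusted p = 0.0189), a call lost in 6 of 21 refits. Adam10, Rhbdf1 and Rhbdf2 did not pass.

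Receptors for signals from dying cells gave 0 rises and 2 falls among 8. The fractalkine receptor gene Cx3cr1 fell from 48 ± 4.03 to 34.7 ± 3.99 CPM (edgeR, adjusted p = 0.00029), with no overlap and no alternative that lost the call, and S1pr1 fell to 0.884 times control, a call lost in 13 of 21 refits. Gpr132 and S1pr2 did not pass. In the list for digestion of engulfed cells, 3 of 13 rose and 0 fell: Rab7 (373 ± 4.29 to 407 ± 4.96 CPM), a GTPase of late phagosomes, Cybb (1040 ± 75.7 to 1200 ± 58.8 CPM), the catalytic NADPH oxidase subunit, and the autophagy gene Atg5 (30.2 ± 1.15 to 33.4 ± 0.906 CPM). The call of Atg5 was lost in 13 of 21 refits, that of Cybb in 5, among them those that left out CYR61 library 2 or 3, and that of Rab7 in 1. Without TMM factors none of the 3 passed, and 0 rose and 1 fell, Mcoln1, which stood at 85.3 ± 2.12 and 81.9 ± 1.29 CPM.

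Among transcription factors known to drive efferocytosis genes, 1 of 11 rose and 2 fell. Pparg fell from 17.2 ± 1.08 to 13.9 ± 1.05 CPM and Nr4a1 from 5.19 ± 0.295 to 3.85 ± 0.478 CPM (edgeR, adjusted p = 0.00466 and 0.0112), both with no overlap. The call of Nr4a1 was lost in 3 of 21 refits. Rxra did not pass. The liver X receptor genes Nr1h2 (93.4 and 97 CPM) and Nr1h3 (11.7 and 13.2 CPM), known regulators of Mertk, did not pass. In the list of genes through which TAM receptors are known to damp inflammation, 3 of 5 tested rose and 0 fell. Of all genes tested 5.33% rose and 2.63% fell. In this list Socs3 rose 2.83-fold (5.3 ± 0.573 to 15 ± 3.03 CPM) and Ifnar1 1.09-fold (112 ± 5.35 to 123 ± 4.25 CPM). The call of Ifnar1 was lost in 9 of 21 refits, and Socs1 (1.66 and 2.06 CPM) did not pass. Twist1 and Twist2 had 0 counts in every library.

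**Figure D5:**
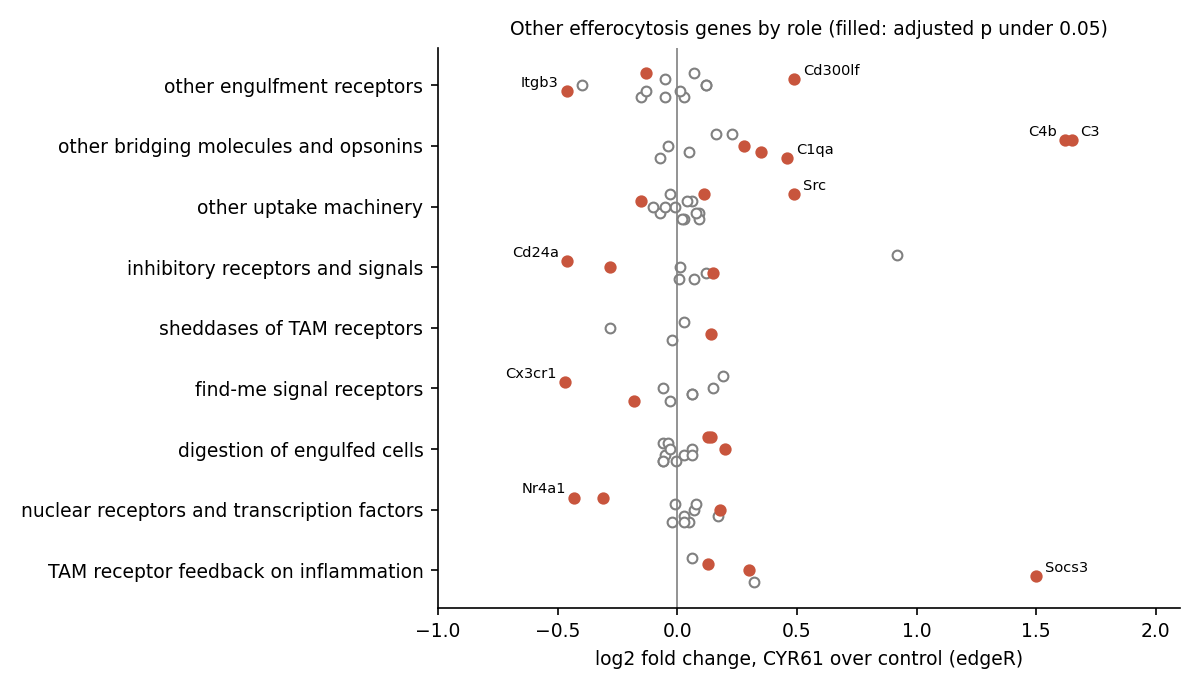
Log2 fold change with CYR61 over control of the 87 other efferocytosis genes tested, 1 point per gene, in 9 lists by role (filled, adjusted p under 0.05). The filled points furthest to the right are C3, C4b and Socs3. The bridging list holds 5 filled points above 0, all of them complement genes, and none below.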

How the data were processed

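RNA from 11 macrophage libraries was sequenced after ribosomal RNA removal, with random priming, per the labels' protocols, which do not say whether strand was kept. The authors deposited expected counts (estimated counts) per Ensembl gene, not normalized. Of these, 88.6 to 89.4% were whole numbers. DRAGEN is named in the submitters' processing notes. Its role and version, the build and the gene models used: not given in the sources used here. A comparison table was also deposited, which holds the authors' log2 fold changes, log2 expression, p-values and scores (moderated statistics).

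The 287 repeated rows were dropped, counts were rounded, and edgeR 4.0.16 in R 4.3.3 (filterByExpr, TMM, glmQLFit, glmQLFTest) compared 4 CYR61 with 7 control libraries, with a threshold of 0.05 on Benjamini-Hochberg adjusted p over 15135 genes. SE is the log2 fold change over the root of the quasi-likelihood F. The scripts were tested on simulated data. Alternatives were DESeq2 1.42.0, limma-voom (limma 3.58.1), RLE factors, no TMM, other filters, protein-coding genes, a replicate block, fewer libraries and a threshold of 0.01. Exon lengths came from GENCODE M21 by gene ID and promoters from RefSeq by symbol, which matched 9 of 9 members. Likeness used log2(CPM + 0.5).

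Members and lists were chosen with earlier results of these data known. The text names all members, up to 4 genes of lowest p with at least 1 CPM per list, and 2 genes most like each member. Some genes that this rule selects are not reported here. Other genes named were chosen after their values were seen.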

Additional observations from a re-analysis of the deposited data

Results flagged for a closer look

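Both proteases tied to shedding of TAM receptors had 1 CYR61 library that was set apart below the other 3. In CYR61 replicate 1 Adam17 stood at 272 CPM, where the others were at 290 to 292 CPM, and Adam10 at 145 CPM, where the others were at 159 to 161 CPM. These were 2 of 86 groups of libraries checked, and chance alone picks out about 1 in 20 groups. Controls were at 241 to 275 CPM for Adam17, a range that holds the value of CYR61 replicate 1, and at 154 to 168 CPM for Adam10. CYR61 replicate 1 was also the library lowest in mitochondrial RNA (0.954%), and a link to it was not tested.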

How the results depend on the processing

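Pros1 passed in all 22 alternatives and Gas6 in none, and both kept their direction. The direction of Mertk, Mfge8, Elmo1 and Dock1 also held in all 22. Pros1 alone passed, leaving 1 member past the threshold, with no filter, at an adjusted p under 0.01, and without control replicate 3 or 5 or CYR61 replicate 1, 2 or 4; leaving out 1 library gave 1 to 2 members, 16 to 25 other efferocytosis genes and 788 to 1372 of all genes. An adjusted p under 0.01 left 640 genes in all and 14 other efferocytosis genes. Elmo1 did not pass at that threshold (-0.12), with no filter (-0.12), or without CYR61 replicates 1 and 4 (-0.11), and its log2 fold change with 1 library left out was -0.14 to -0.11. Mertk passed without CYR61 replicates 1 and 4 (0.27), and Mfge8 with library size alone (-0.11). Left-out libraries gave log2 fold changes of 0.11 to 0.20 for Mertk, -0.08 to 0.05 for Axl, 0.05 to 0.09 for Gas6, 0.25 to 0.30 for Pros1, -0.09 to -0.05 for Mfge8 and 0.08 to 0.13 for Dock1. With the replicate number as a block in 8 libraries, Mertk (0.24) and Dock1 (0.16) passed, Elmo1 (-0.11) did not, and Axl was at 0.0086; the same 8 libraries without the block gave 0.24, 0.16, -0.11 and 0.01, and 1267 genes in all against 1261 with it. Same-numbered libraries did not deviate together (r over genes -0.0339 to 0.0337). Pairs that differ little from each other would also give a low r, so whether the numbers pair the libraries is not known. The cause of these changes was not tested.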
